A study of Arabidopsis thaliana with 27 samples.

Results

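Rosette leaves of the Arabidopsis thaliana mutant dcl1-7 were compared with rosette leaves of the wild type Col-0. The comparison rests on 6 of the series' 27 Affymetrix ATH1 arrays, 3 hybridised with dcl1-7 leaf RNA and 3 with Col-0 leaf RNA. It covers 22746 of the 22810 probe sets, all but the 64 whose ids mark them as Affymetrix controls. The samples were chosen by their labels alone. RNA was taken from rosette leaves 5 to 8, and each array stands for a biological replicate harvested from at least 9 plants, per the series' design text. Leaves of dcl4-2 and rdr6-15, with 3 arrays each, and inflorescences of all genotypes make up the rest of the series. The same 3 Col-0 leaf arrays are the labelled control of every leaf mutant. The dcl1-7 plants carry a partial loss-of-function allele of DCL1, with no transgene named in the labels, and neither plant age nor growth conditions are given in the sources used here.

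DICER-LIKE 1 (DCL1) is the RNase III enzyme that cuts plant microRNAs out of hairpin precursors. The mature microRNA guides an ARGONAUTE protein to messenger RNAs with a matching site, which are then cut or kept from being translated, so targets tend to build up where DCL1 is impaired. In leaves such targets include regulators of leaf polarity and of copper and sulfate use. DCL4 and RDR6 act in a different branch, the production of trans-acting siRNAs, and that branch itself starts from microRNA cuts. The question asked of the leaf arrays was which transcripts differ when DCL1 is impaired.

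Values are log2 expression levels, so a difference of 1 is a 2-fold change. A probe set is called when its Benjamini-Hochberg adjusted p from limma is under 0.05 over all 22746 probe sets. The fit took in all 12 leaf arrays, so those of dcl4-2 and rdr6-15 enter the estimate of spread behind each SE and p. Array medians of the 12 leaf arrays lay between 6.93 and 7.00. In dcl1-7 leaves replicate 1 stood apart from replicates 2 and 3. Its correlation across probe sets was 0.982 and 0.980 with the other dcl1-7 arrays and reached 0.985 with an array of another genotype. In all, 5 arrays of other genotypes correlated with it more highly than its own group did. Each Col-0 array in turn had 2 arrays of other genotypes, at up to 0.995, above its best match in its own group. The closest of these had the same replicate number, which is accession order. They were rdr6-15 replicate 1 (0.994), dcl4-2 replicate 2 (0.995) and dcl4-2 replicate 3 (0.992). On the first principal component of the leaf arrays, which held 42.1% of the variance, the dcl1-7 arrays lay at 15.8, 45.6 and 51.0, against −24.9, −17.1 and −0.59 for the Col-0 arrays. Replicate 1 thus lay nearest to Col-0, without overlap. On the second component (13.8% of the variance) replicate 3 was the lowest array of every leaf genotype. It lay at −17.9 in Col-0, −22.7 in dcl4-2, −16.1 in rdr6-15 and −5.35 in dcl1-7. The control transcripts' 3′ minus 5′ signal, a measure of RNA integrity and labelling, averaged 3.24 ± 0.29 in dcl1-7 leaves and 2.95 ± 0.13 in Col-0 leaves (SD, n = 3 each). The difference was 0.30, with a two-sided exact permutation p of 0.2, where 0.1 is the smallest p that 3 against 3 allows.

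The leaf label was checked against marker genes. RCA, Rubisco activase, was at 13.42 to 13.84 in dcl1-7 leaves and 13.55 to 14.01 in Col-0 leaves, far above the array medians. It was at 12.96 to 13.86 in inflorescences, so it does not tell the organs apart. The anther gene AMS lay between 4.79 and 5.23 in all leaf arrays and between 7.60 and 9.08 in inflorescences. The anther gene SPL and the flower gene SPT were likewise lower in every leaf array than in every inflorescence array. The flower gene INO overlapped, at 6.10 to 6.89 in leaves and 6.23 to 7.76 in inflorescences. Of the 20 measured marker genes of leaf mesophyll, flowers, anthers, roots, stomata, trichomes, vessels and seeds, 1 was called. It was FMA (the FAMA gene), a transcription factor of guard cell formation, at 6.25, 6.16 and 6.18 in dcl1-7 leaves, against 7.08, 6.70 and 6.64 in Col-0 leaves (−0.61, SE 0.12, adjusted p = 0.00793). In RNA from whole leaves, fewer cells of a type and less RNA per cell cannot be told apart. DCL1 itself is not the only symbol of any probe set, and the mutated gene is therefore not analysed here.

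A total of 2142 probe sets were called, which is 9.42% of those tested. Of these, 951 (4.18% of all tested) were higher and 1191 (5.24%) were lower in dcl1-7 leaves. At least 2-fold differences were fewer, with 223 higher and 148 lower. The 3 dcl1-7 arrays lay wholly outside the range of the 3 Col-0 arrays for 2115 of the called probe sets, and for 5240 (23%) of all probe sets. The median difference over all probe sets was 0.015, so the groups were not shifted as a whole on this normalized scale. Single gene names were available for 1115 of the called probe sets, 55 carried several names and 972 carried none. Without dcl1-7 replicate 1 the count rose to 3842, of which 1985 were shared with the full comparison. Without dcl1-7 replicate 2 or 3 it was 1336 or 1190, and without Col-0 replicate 1 or 2 it was 1043 or 1154. The 1985 shared calls are 92.7% of the calls with replicate 1 and 51.7% of the calls without it.

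Known microRNA targets were examined first, because they stand closest to DCL1. Of the 85 listed targets 9 were measured, which here and elsewhere means found on a probe set with a single gene name. The other listed targets may still be on the array. Of the 9, 6 were higher and 0 lower in dcl1-7 leaves (background 4.18% higher, 5.24% lower). The median difference of the 9 was 0.81, against 0.015 over all probe sets. PHV, a class III homeodomain factor that specifies the upper leaf side and is targeted by miR166, was at 9.20, 9.09 and 8.71 in dcl1-7 leaves, against 8.12, 7.96 and 7.94 in Col-0 leaves. All dcl1-7 arrays lay above all Col-0 arrays, and the difference was 0.99 (SE 0.13, adjusted p = 0.00132). AGL16, a MADS-box factor targeted by miR824, was at 9.91, 9.57 and 9.95 in dcl1-7, against 8.88, 8.51 and 8.97 in Col-0. Here too the groups were fully separated, by 1.02 (SE 0.15, adjusted p = 0.00187).

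Targets in copper and sulfate metabolism were also higher. CCS, which delivers copper to superoxide dismutase and is targeted by miR398, was at 11.68, 10.87 and 10.98 in dcl1-7, against 9.95, 9.90 and 10.15 in Col-0. Its difference was 1.18 (SE 0.20, adjusted p = 0.00366), with replicate 1 the highest dcl1-7 array, and without that array it was 0.93 (adjusted p = 0.00297). APS4, an ATP sulfurylase targeted by miR395, was at 10.06, 9.51 and 10.11 in dcl1-7, against 8.52, 8.98 and 8.83 in Col-0 (1.12, SE 0.20, adjusted p = 0.00482). The related APS3, also a miR395 target, differed by less, at 10.41, 10.42 and 10.12 in dcl1-7 against 9.76, 9.84 and 9.96 in Col-0 (0.46, SE 0.12, adjusted p = 0.0313). ARPN, the copper protein plantacyanin and a miR408 target, was at 7.72, 7.83 and 8.24 in dcl1-7, against 6.69, 7.31 and 7.37 in Col-0 (0.81, SE 0.21, adjusted p = 0.0337). The groups did not overlap in any of these 4 genes. The calls of PHV, AGL16, CCS and APS4 held when any 1 of the 6 arrays was left out. APS3 missed the threshold without dcl1-7 replicate 1 (adjusted p = 0.0537) or 2 (0.109) or Col-0 replicate 1 (0.12) or 2 (0.0962), and ARPN without dcl1-7 replicate 2 (0.0721) or 3 (0.133) or Col-0 replicate 1 (0.128) or 2 (0.0594).

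The other 3 measured targets were not called. SNZ and SMZ, repressors of flowering targeted by miR172, differed by −0.11 (SE 0.15) and −0.03 (SE 0.10). LCR, an F-box gene targeted by miR394, was at 9.04, 8.25 and 8.36 in dcl1-7 against 8.62, 8.55 and 8.45 in Col-0. In all 3 genes the arrays of the groups overlapped. The 4 measured genes of small RNA production and action, SE, TGH, AGO7 and DDL, were not called either, with differences of −0.23, −0.20, −0.11 and 0.02 and overlapping arrays. SE and TGH encode partners of DCL1 in microRNA processing, and AGO7 is the ARGONAUTE that starts one kind of trans-acting siRNA.

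**Figure D1:**
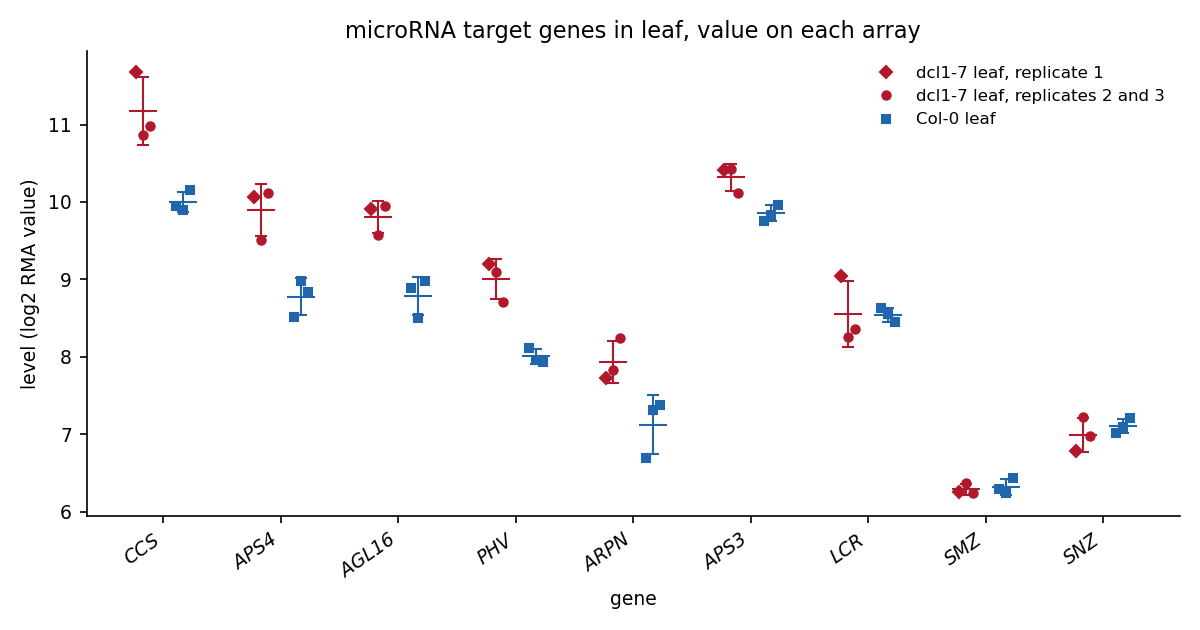
Log2 level (y axis) of the 9 measured microRNA targets (x axis) in leaf, 1 point per array, dcl1-7 in red (a diamond for replicate 1) left of Col-0 in blue, with bars at the mean ± SD of 3 arrays. The groups are fully separated for CCS, APS4, AGL16, PHV, ARPN and APS3 and overlap for LCR, SMZ and SNZ.

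Lists of genes that act beside these targets held 4 measured genes each, some of the targets included. In leaf polarity and in sulfate assimilation 50% were called higher, against 4.18% of all probe sets. In flowering 25% were called lower, against 5.24%. Of the 4 measured leaf polarity and meristem genes, YAB5, a factor of the lower leaf side, was called along with PHV, at 8.52, 8.64 and 8.82 in dcl1-7 against 8.19, 8.23 and 8.21 in Col-0. The difference was small (0.45, SE 0.12, adjusted p = 0.0375), and it was called without dcl1-7 replicate 1 (0.0205) but with no other array left out (adjusted p of 0.0756 to 0.145). In sulfate assimilation the other 2 of 4 measured genes were not called. Of the 4 flowering genes AGL24, a MADS-box promoter of flowering, was lower, by −0.46 (SE 0.13, adjusted p = 0.0402), and kept its call without dcl1-7 replicate 1 alone (0.0184).

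The largest group to differ was the protein synthesis machinery. Genes of cytosolic ribosomal proteins, the proteins of the translating ribosome encoded in the nucleus, were lower in dcl1-7 leaves. The list was added after values were seen. It holds 129 measured genes, of which 100 were called lower and 0 higher, against 5.24% and 4.18% of all probe sets. Their median difference was −0.63, a level of 64.5% of Col-0, and 16 of the called genes were at least 2-fold lower. Of the 47 small-subunit genes 37 were called lower, with a median of −0.63, and of the 82 large-subunit genes 63 were called lower, again with a median of −0.63. The arrays of the groups did not overlap for 112 of the 129 genes (23% of all probe sets). The 29 uncalled genes ran from −0.83 to 0.27, and 25 of them lay below 0.

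The shift was present in every dcl1-7 array. Relative to the Col-0 mean of each gene, the median over the 129 genes was −0.58, −0.72 and −0.57 in dcl1-7 replicates 1, 2 and 3, against 0.07, 0.03 and −0.10 in the Col-0 arrays. The dcl4-2 and rdr6-15 arrays lay between −0.15 and 0.05. For this group dcl1-7 replicate 1 was thus no nearer to Col-0 than replicate 3 was. These are strongly expressed genes, with a median Col-0 level of 11.3.

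Among single members, AT2G20450, for a large-subunit protein, was at 10, 9.45 and 9.84 in dcl1-7 leaves, against 11.12, 11.14 and 10.94 in Col-0 leaves. The difference was −1.30 (SE 0.14, adjusted p = 0.000342). AT3G28900, for another large-subunit protein, had the largest fall of the group, at 9.88, 9.59 and 9.18 in dcl1-7 against 11.12, 10.92 and 10.90 in Col-0 (−1.43, SE 0.17, adjusted p = 0.000771). For the small subunit, AT2G32060 was at 10.01, 9.96 and 9.88 in dcl1-7 against 11.06, 11.16 and 10.74 in Col-0 (−1.04, SE 0.11, adjusted p = 0.0005). AT1G23410, which encodes ubiquitin fused to a small-subunit protein, was at 6.30, 6.40 and 6.71 in dcl1-7 against 7.75, 7.72 and 7.62 in Col-0 (−1.23, SE 0.14, adjusted p = 0.00055). AT5G27850 and AT5G60670, both of the large subunit, differed by −0.84 (SE 0.10, adjusted p = 0.000592) and −0.84 (SE 0.10, adjusted p = 0.000825). All 6 had separated groups and kept their calls when any 1 array was left out.

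Cytosolic ribosomal proteins come from families of near-identical genes, so a probe set may read its closest copies too. The 3′ minus 5′ signal was also higher in dcl1-7, as given above. With it as a covariate 73 of the 129 genes were called lower, without dcl1-7 replicate 1 it was 98 with a median of −0.63, and with the 6 arrays alone it was 61.

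**Figure D2:**
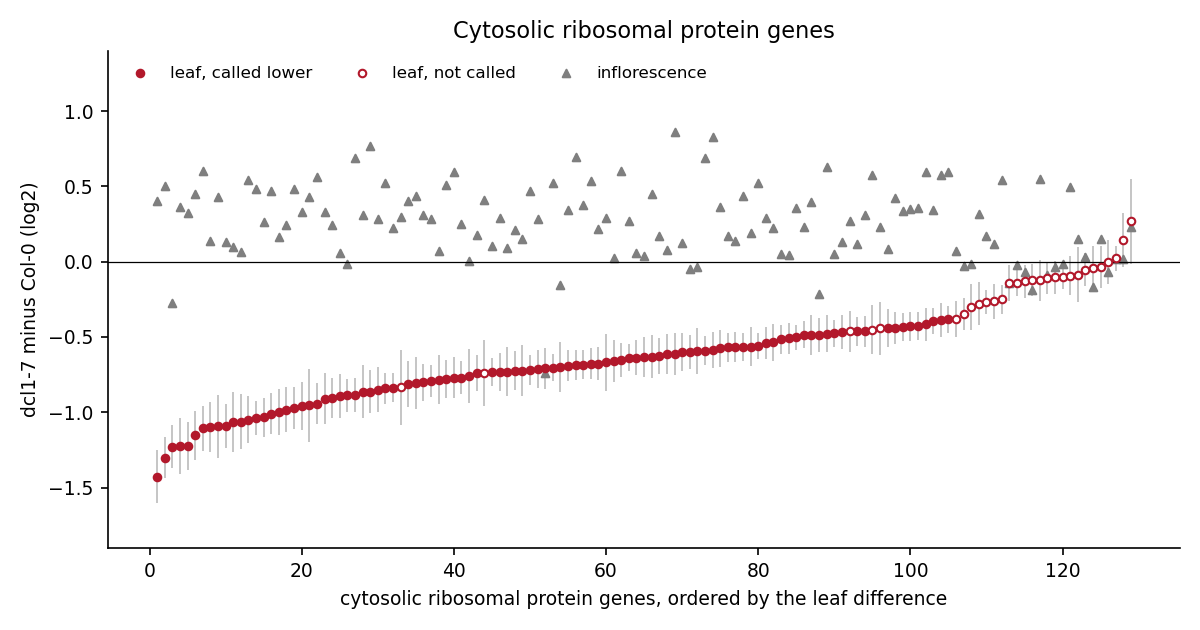
Log2 difference of dcl1-7 from Col-0 (y axis) for the 129 cytosolic ribosomal protein genes ordered by the leaf difference (x axis), with leaf in red circles (filled where called, bars ± SE) and inflorescence in grey triangles. The 100 called leaf values all lie below 0, with the leaf median at −0.63, and most inflorescence values lie above 0, with a median of 0.27.

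Translation factors and the ribosome of the chloroplast were lower as well. Of 12 measured cytosolic translation factors, a list also added after values were seen, 7 were lower and 1 was higher (background 5.24% lower, 4.18% higher). The median of the 12 was −0.54. EIF4A-2, an RNA helicase of translation initiation, was at 10.10, 9.94 and 9.95 in dcl1-7 against 10.57, 10.65 and 10.40 in Col-0 (−0.54, SE 0.11, adjusted p = 0.0101). AT5G12110, a subunit of elongation factor 1B, was at 8.94, 8.84 and 8.78 in dcl1-7 against 9.44, 9.46 and 9.26 in Col-0 (−0.53, SE 0.11, adjusted p = 0.0104). AT1G18070, a protein of the eRF3 release factor family, was lower by a wider margin in replicates 2 and 3 (8.21 and 8.42) than in replicate 1 (9.49), against 9.93, 9.98 and 9.57 in Col-0 (−1.12, SE 0.29, adjusted p = 0.0304). The exception was AT4G27130, an initiation factor of the SUI1 type, at 9.19, 9.17 and 9.56 in dcl1-7 against 8.24, 8.76 and 8.66 in Col-0 (0.75, SE 0.19, adjusted p = 0.0306). With the 3′ minus 5′ covariate 2 of the 12 were called lower, and without any 1 of dcl1-7 replicates 2 and 3 and Col-0 replicates 1 and 2 it was 3. AT1G18070, AT5G19510 (another subunit of elongation factor 1B, −0.71, SE 0.17, adjusted p = 0.0231) and AT4G27130 missed the threshold without Col-0 replicate 1 (adjusted p = 0.1, 0.0962 and 0.125), dcl1-7 replicate 2 (0.12, 0.0772 and 0.057) or dcl1-7 replicate 3 (0.115, 0.0704 and 0.121), and AT1G18070 (0.108) and AT5G19510 (0.0874) also without Col-0 replicate 2.

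Plastid ribosomes are built from proteins encoded in the nucleus and in the plastid genome. Of the 10 measured nuclear genes for them, from another list written after values were seen, 8 were lower and 1 higher in dcl1-7 leaves. Over all probe sets 5.24% were lower and 4.18% higher. The median of the 10 was −0.72. All 10 had arrays that did not overlap, as had 23% of all probe sets. AT1G64510 was at 11.28, 10.70 and 10.88 in dcl1-7 against 11.93, 11.90 and 11.87 in Col-0 (−0.95, SE 0.13, adjusted p = 0.00154). AT4G17560 was at 9.31, 9.13 and 9.11 in dcl1-7 against 10.53, 10.44 and 9.86 in Col-0 (−1.10, SE 0.16, adjusted p = 0.00187). The gene that rose was AT5G24490, at 11.54, 11.41 and 11.57 in dcl1-7 against 11.05, 10.94 and 11.10 in Col-0 (0.48, SE 0.11, adjusted p = 0.018). It is the only called member of the list that ran against the rest, and its call was lost without dcl1-7 replicate 3, Col-0 replicate 1 or Col-0 replicate 2.

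Transcripts of the plastid genome itself were mixed in sign. Of 69 measured plastid transcripts 2 (2.90%) were higher and 7 (10.1%) lower, against 4.18% and 5.24% of all probe sets. Above 0 lay 51, and the median was 0.48. The median over these genes, relative to Col-0, was 0.08, 0.76 and 0.40 in dcl1-7 replicates 1, 2 and 3, against −0.07, −0.01 and 0.06 in the Col-0 arrays. Replicate 1 of dcl1-7 thus lay close to Col-0, and rdr6-15 replicate 2, at 1.03, lay above every dcl1-7 array. The 7 genes measured in the ribosomal protein operon had a median of −0.78, and 4 of them were called lower. Its member rps3 was at 9.98, 9.96 and 9.71 in dcl1-7 against 11.33, 11.34 and 10.61 in Col-0 (−1.21, SE 0.19, adjusted p = 0.00254). The called operon members rpoA, a plastid RNA polymerase subunit, rpl22 and rps19 differed by −0.64, −0.88 and −0.98 (adjusted p = 0.0353, 0.0383 and 0.0435). The uncalled members rpl14 and rpl16 lay at 0.94 and 0.26.

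The ATP synthase genes atpB and atpE, which share a transcript, were the 2 called of 6 measured for that enzyme (background 5.24% lower). The gene atpB had the largest fall of any named gene. For atpB the levels were 8.96, 8.48 and 10.21 in dcl1-7, against 12.20, 12.39 and 11.29 in Col-0 (−2.74, SE 0.65, adjusted p = 0.0211). For atpE they were 11.75, 11.83 and 13.06 in dcl1-7, against 13.55, 13.80 and 13.47 in Col-0 (−1.39, SE 0.37, adjusted p = 0.0356). In both genes the replicate 3 array of dcl1-7 was the highest of its group, yet still below every Col-0 array. Transcripts of the photosystems leaned the other way. Of 20 measured photosystem genes 1 (5%) was called higher, near the 4.18% of all probe sets, and 0 lower, with a median of 0.40. That gene was psbA, for the reaction centre protein of photosystem II, at 8.75, 8.74 and 9.06 in dcl1-7 against 7.99, 8.09 and 8.07 in Col-0 (0.80, SE 0.18, adjusted p = 0.0164). The 10 genes of the NDH complex and the 6 of cytochrome b6f had medians of 0.53 each and 0 calls. Of all probe sets 9.42% were called. By array the NDH median was 0.10, 0.83 and 0.56 in dcl1-7, and that of cytochrome b6f 0.16, 0.98 and 0.45, so both rest on replicates 2 and 3. In rdr6-15 leaves, set against the same Col-0 arrays, these medians were 0.46 and 0.38, with replicate 2 at 1.26 and 1.12.

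Most plastid calls rest on few arrays. Without dcl1-7 replicate 1 there were 3 falls and 8 rises, without replicate 2 or 3 there were 3 falls and 1 rise, while without Col-0 replicate 1 or 2 there were 1 fall and 0 rises, with the 3′ minus 5′ covariate there were 1 fall and 1 rise, and with all 27 arrays 3 falls and 11 rises. The call of rps3 held without any 1 array, and those of atpB, atpE, psbA, rpoA, rpl22, rpl33 and rps19 did not (adjusted p of 0.0505 to 0.167 where they were lost).

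**Figure D3:**
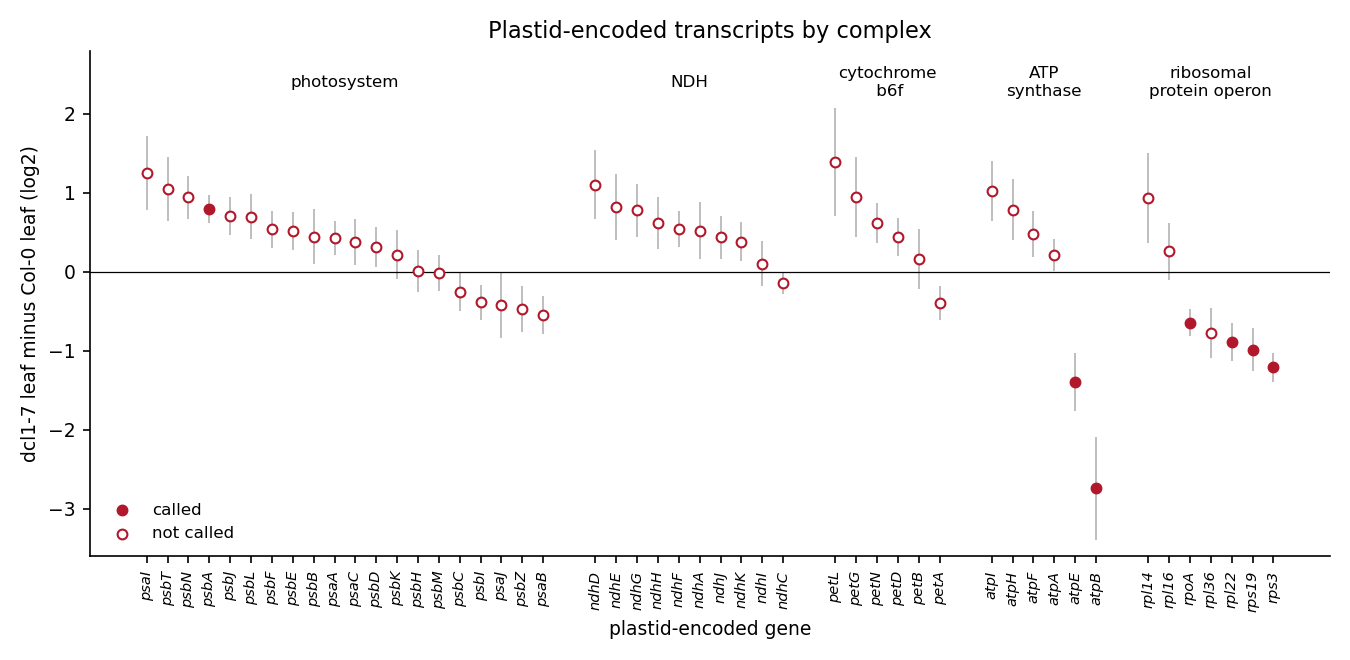
Log2 difference of dcl1-7 from Col-0 leaves with bars of ± SE (y axis) for plastid-encoded genes grouped by complex (x axis), 1 point per gene, filled where called. The called atpB, atpE, rpoA, rpl22, rps19 and rps3 lie below 0, the called psbA lies above 0, and most uncalled photosystem, NDH and cytochrome b6f genes lie above 0.

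Genes for the light reactions in the nucleus were mostly uncalled, with 1 of 18 called lower (5.56%, near the 5.24% of all probe sets). The exception was LHCB4.3, an antenna protein of photosystem II, at 10.82, 11.21 and 11.16 in dcl1-7 against 12.30, 12.28 and 12.19 in Col-0. It was lower by −1.19 (SE 0.11, adjusted p = 0.000176), while its relative LHCB4.2 differed by 0.18 (SE 0.11). In tetrapyrrole synthesis, the route to chlorophyll and heme, 4 of 9 measured genes were lower and 0 higher (background 5.24% lower, 4.18% higher). The median of the 9 was −0.50. HEME2, a uroporphyrinogen decarboxylase, was at 10.46, 9.92 and 10.09 in dcl1-7 against 11.35, 11.32 and 10.82 in Col-0 (−1.01, SE 0.16, adjusted p = 0.00252). HEME1, the second gene for this step, was lower by −0.93 (SE 0.18, adjusted p = 0.00705). GSA1, which makes the pathway's precursor aminolevulinate, was lower by −0.60 (SE 0.11, adjusted p = 0.00598), and CHLI2, a subunit of magnesium chelatase, by −0.69 (SE 0.13, adjusted p = 0.00705). The arrays of the groups did not overlap in these 4 genes, and their calls held with the 3′ minus 5′ covariate.

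**Figure D4:**
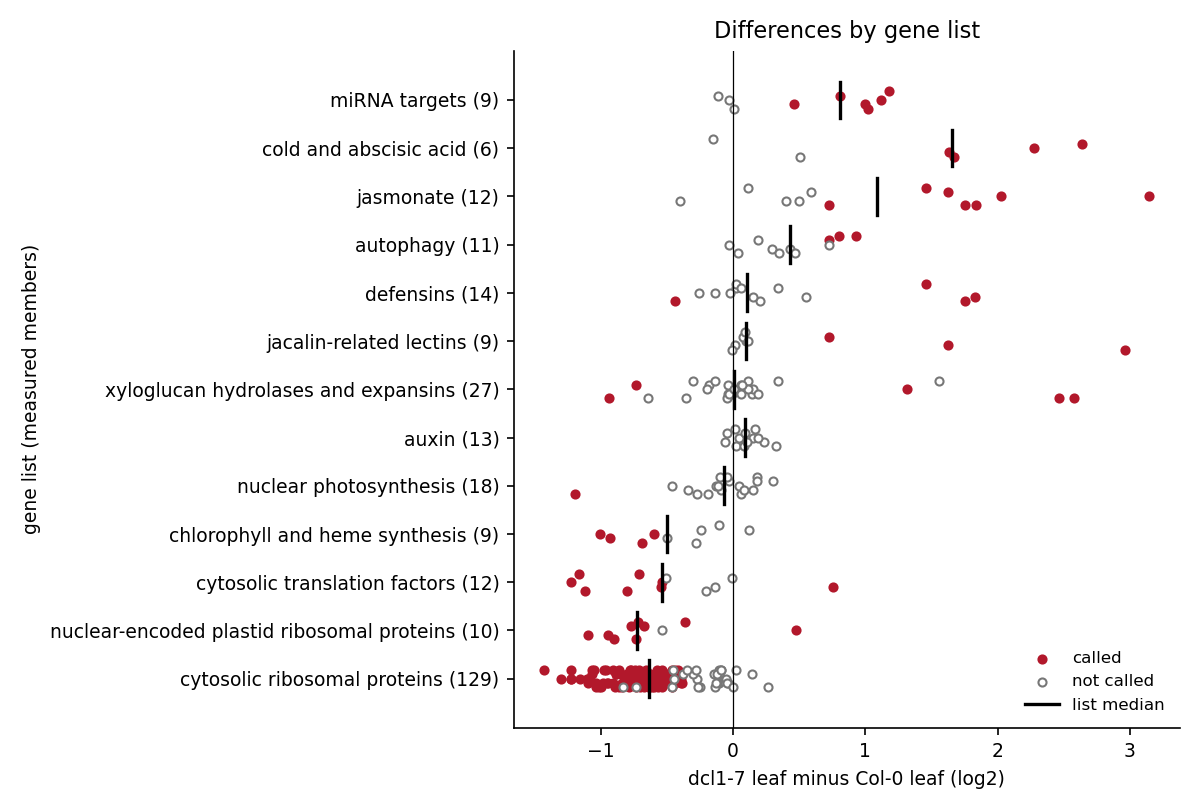
Log2 difference of dcl1-7 from Col-0 leaves (x axis) by gene list (y axis, measured members in brackets), 1 point per gene, filled red where called, with a black line at the list median. The medians of the chlorophyll, translation factor and ribosomal protein lists lie at −0.50 to −0.72, and those of the microRNA target, cold and jasmonate lists at 0.81 to 1.65.

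Cold and abscisic acid response genes were among the largest rises. Of 6 measured, 4 were higher and 0 lower in dcl1-7 leaves (background 4.18% higher, 5.24% lower), with a median of 1.65. The dehydrins, hydrophilic proteins made in cold and drought, led this list. LTI30 was at 10.43, 10.92 and 11.67 in dcl1-7 against 7.99, 8.08 and 9.03 in Col-0 (2.64, SE 0.38, adjusted p = 0.00176). COR47 was at 11.85, 11.65 and 12.59 in dcl1-7 against 9.47, 9.50 and 10.30 in Col-0 (2.27, SE 0.29, adjusted p = 0.000924). COR15A and COR15B, chloroplast proteins that protect membranes on freezing, are neighbouring copies. COR15B was at 10.80, 11.17 and 11.99 in dcl1-7 against 9.38, 9.64 and 10.04 in Col-0 (1.64, SE 0.27, adjusted p = 0.0038). COR15A differed by 1.67 (SE 0.37, adjusted p = 0.0164), and its call was lost without dcl1-7 replicate 3 (0.0638) or Col-0 replicate 1 (0.072). In all 4 genes replicate 3 was the highest array of dcl1-7 and also of Col-0, and the groups stayed apart.

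Jasmonate response genes were higher, with 7 of 12 measured called and 0 lower (background 4.18% higher, 5.24% lower), and a median of 1.09. Among the 7 are PDF1.2, PDF1.2b, JAL23 and JAL34, which the defensin and lectin lists below count again. The rest of the 7 are a trio of related dioxygenases known to inactivate jasmonate by oxidation. JRG21 was at 8.63, 8.13 and 7.85 in dcl1-7 against 5.95, 6.08 and 6.51 in Col-0 (2.03, SE 0.19, adjusted p = 0.000177). AT2G38240 was at 9.06, 8.86 and 9.64 in dcl1-7 against 7.17, 7.01 and 7.86 in Col-0 (1.84, SE 0.24, adjusted p = 0.000998). AT5G05600 had the largest rise of any named gene, at 10.12, 10.57 and 11.46 in dcl1-7 against 6.36, 7.22 and 9.13 in Col-0 (3.15, SE 0.67, adjusted p = 0.0131). The Col-0 arrays of this gene were widely spread, and its call was lost without dcl1-7 replicate 3 (0.0563), Col-0 replicate 1 (0.0557) or Col-0 replicate 2 (0.0547). The dcl1-7 arrays all lay above the highest Col-0 array.

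Defensins, small antifungal proteins that include jasmonate targets, were split. Of 14 measured, 3 were higher and 1 was lower (21.4% and 7.14%, against 4.18% and 5.24% of all probe sets). PDF1.4 was at 7.73, 8.10 and 8.62 in dcl1-7 against 6.12, 6.25 and 6.58 in Col-0 (1.83, SE 0.23, adjusted p = 0.000848). PDF1.2, the usual reporter of jasmonate and ethylene signalling, was at 11.34, 12.54 and 13.14 in dcl1-7 against 10.69, 11 and 10.96 in Col-0 (1.46, SE 0.36, adjusted p = 0.0242). Its replicate 1 lay well below the other dcl1-7 arrays, and without it the difference was 1.96 (adjusted p = 0.000872). PDF1.2b differed by 1.75 (SE 0.37, adjusted p = 0.0121) on a probe set that may also read related copies. LCR68 was lower by −0.44 (SE 0.12, adjusted p = 0.0336). The calls of PDF1.2 and LCR68 were lost without dcl1-7 replicate 2 (0.0882 and 0.111), dcl1-7 replicate 3 (0.0814 and 0.102), Col-0 replicate 1 (0.0905 and 0.123) or Col-0 replicate 2 (0.0649 and 0.0516).

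Jacalin-related lectins, sugar-binding proteins often induced by jasmonate, were higher in 3 of 9 measured cases and lower in 0 (background 4.18% higher, 5.24% lower). AT1G52000 was at 8.39, 8.71 and 8.66 in dcl1-7 against 6.08, 5.43 and 5.37 in Col-0 (2.96, SE 0.30, adjusted p = 0.000325). JAL23 was at 8.18, 8.31 and 7.21 in dcl1-7 against 6.03, 6.09 and 6.71 in Col-0 (1.62, SE 0.29, adjusted p = 0.00561). JAL34 was higher by 0.72 (SE 0.12, adjusted p = 0.00403). The groups were separated in all 3.

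**Figure D5:**
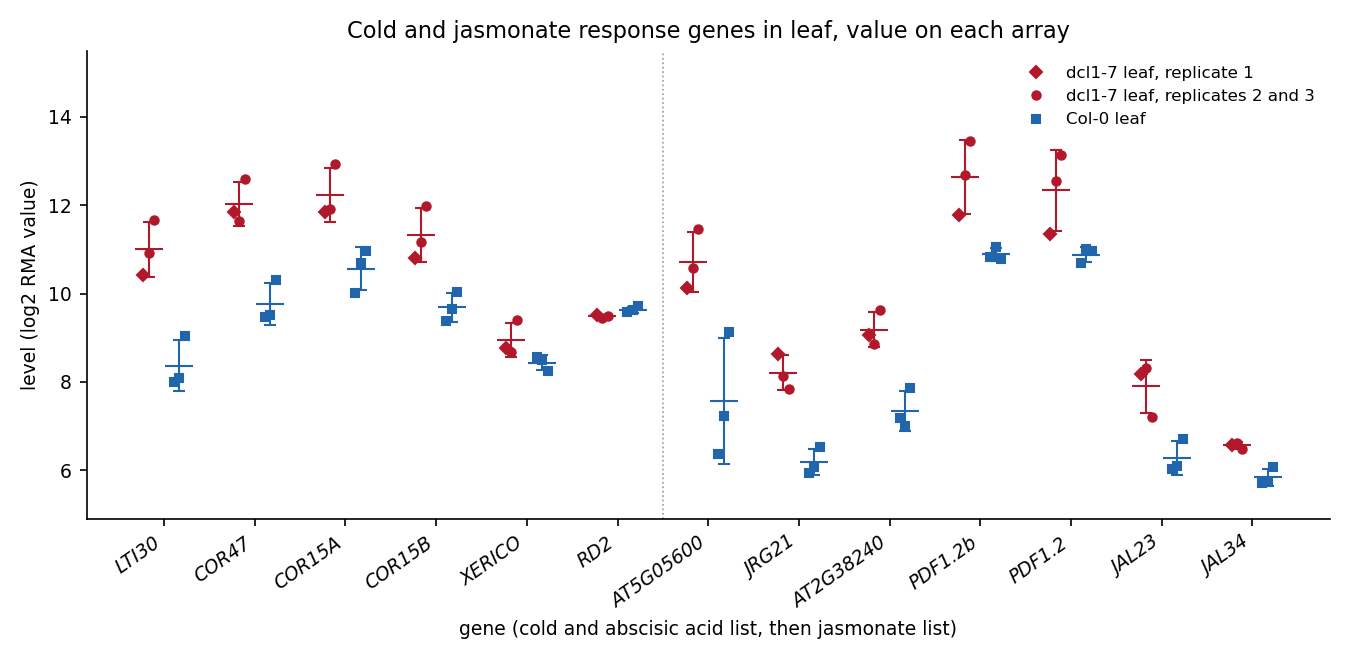
Log2 level (y axis) of all 6 measured cold and abscisic acid genes and the 7 called jasmonate genes (x axis) in leaf, 1 point per array, dcl1-7 in red (a diamond for replicate 1) left of Col-0 in blue, with bars at the mean ± SD of 3 arrays. XERICO and RD2 were not called, although their groups do not overlap, and 1 of these 2 lies below Col-0. In the other genes every dcl1-7 point lies above every Col-0 point.

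Enzymes and proteins that loosen cell walls differed in both directions, with 3 of 27 measured higher and 2 lower. These shares were 11.1% and 7.41%, against 4.18% and 5.24% of all probe sets. EXLA1, an expansin-like protein, was at 10.29, 10.13 and 10.32 in dcl1-7 against 7.34, 7.73 and 7.94 in Col-0 (2.57, SE 0.30, adjusted p = 0.000651). XTH19, which cuts and rejoins xyloglucan, was at 8.97, 8.05 and 8.59 in dcl1-7 against 5.74, 6 and 6.50 in Col-0 (2.46, SE 0.35, adjusted p = 0.00177). EXPA8 was higher by 1.32 (SE 0.28, adjusted p = 0.0128). EXPA4 and XTH16 were lower by −0.94 (SE 0.22, adjusted p = 0.0181) and −0.74 (SE 0.17, adjusted p = 0.0214). The call of XTH16 was lost without dcl1-7 replicate 3 (0.0862), Col-0 replicate 1 (0.0816) or Col-0 replicate 3 (0.0549). That of EXPA4 was lost without dcl1-7 replicate 2 (0.0742) or 3 (0.0653) or Col-0 replicate 1 (0.0773) or 2 (0.0645).

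In autophagy 3 of 11 measured genes were higher and 0 lower (background 4.18% higher, 5.24% lower), with a median of 0.43. All 3 encode ATG8, the ubiquitin-like protein that coats the autophagosome. ATG8F was at 11.21, 11.25 and 11.50 in dcl1-7 against 10.51, 10.62 and 10.66 in Col-0 (0.72, SE 0.13, adjusted p = 0.0056). ATG8B differed by 0.93 (SE 0.19, adjusted p = 0.0102) and ATG8G by 0.80 (SE 0.17, adjusted p = 0.0131). The call of ATG8G was lost without dcl1-7 replicate 3 (0.0554) or Col-0 replicate 1 (0.0575). Each of the 3 had separated groups.

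Further large rises fell outside these lists. AT1G02300, a cathepsin B-like cysteine protease, was at 9.42, 8.77 and 9.37 in dcl1-7 against 6.67, 6.55 and 6.48 in Col-0 (2.62, SE 0.22, adjusted p = 0.000133). AT4G12490, of the lipid transfer protein family around AZI1, was at 8.96, 10.11 and 10.06 in dcl1-7 against 6.41, 7.70 and 7.16 in Col-0 (2.62, SE 0.47, adjusted p = 0.00528). AT5G62360, of the pectin methylesterase inhibitor family, was at 8.37, 8.56 and 10.32 in dcl1-7 against 6.62, 6.43 and 6.74 in Col-0 (2.49, SE 0.39, adjusted p = 0.00254). None of these 3 genes had overlapping arrays, and replicate 3 stood highest for the last. AT3G10020, known to rise in low oxygen, differed by 2.18 (SE 0.39, adjusted p = 0.00522), and AT3G62550, a universal stress protein, by 2.23 (SE 0.44, adjusted p = 0.00905). AT4G28140, an AP2/ERF transcription factor, was at 8.42, 8.63 and 9.87 in dcl1-7 against 5.79, 6.08 and 8.29 in Col-0 (2.25, SE 0.59, adjusted p = 0.0335). In this last gene Col-0 replicate 3 nearly reached the lowest dcl1-7 array, and the call was lost without dcl1-7 replicate 2 (0.0695) or 3 (0.133) or Col-0 replicate 1 (0.134) or 2 (0.131).

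The largest falls of nuclear genes were in genes of varied roles. AT2G33850 was at 4.64, 4.99 and 4.94 in dcl1-7 against 7.84, 7.08 and 7.36 in Col-0 (−2.57, SE 0.25, adjusted p = 0.000256). The lowest decile of dcl1-7 leaf values ended at 4.9, so these arrays were near the floor, which bounds the size of the fall. The same holds for replicates 2 and 3 of dcl1-7 in the next gene. AT3G44400, a disease resistance gene of the TIR class, was at 7.04, 4.98 and 5.03 in dcl1-7 against 7.89, 8.22 and 8.08 in Col-0 (−2.38, SE 0.44, adjusted p = 0.00604). Replicate 1 lay well above the other dcl1-7 arrays here, and without it the difference was −3.06 (adjusted p = 0.000129). AT3G44630, of the same class, was lower by −0.89 (SE 0.16, adjusted p = 0.00625), and the other 10 measured resistance genes were not called. Of this list 16.7% were thus lower and 0% higher, against 5.24% and 4.18% of all probe sets. AT5G45670, a lipase of the GDSL family, was at 5.64, 5.92 and 5.85 in dcl1-7 against 8.11, 7.52 and 7.53 in Col-0 (−1.91, SE 0.17, adjusted p = 0.000144). AT5G62210 was at 6.05, 6.74 and 6.30 in dcl1-7 against 8.58, 7.77 and 7.51 in Col-0 (−1.59, SE 0.24, adjusted p = 0.00243). Both genes had separated groups, with replicate 2 the highest dcl1-7 array.

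Other falls included WSD1, a wax ester synthase of the leaf surface, at 5.16, 4.95 and 4.97 in dcl1-7 against 6.61, 6.11 and 6.12 in Col-0 (−1.25, SE 0.19, adjusted p = 0.00229). Its dcl1-7 values too lay near the lowest decile, which ended at 4.9. AT1G04800, a glycine-rich protein, was lower by −1.37 (SE 0.16, adjusted p = 0.000531), and AT2G36885 by −1.42 (SE 0.13, adjusted p = 0.000167). AT5G07030, an aspartyl protease, AT2G20690 and AT3G49340, a cysteine protease, were lower by −1.48 (SE 0.37, adjusted p = 0.0261), −1.45 (SE 0.34, adjusted p = 0.0205) and −1.40 (SE 0.32, adjusted p = 0.0183). In AT5G07030 and AT2G20690 replicate 1 lay nearest to Col-0, at 7.29 and 8.54, against 6.17 and 7.09 in replicate 2. The calls of AT5G07030, AT2G20690 and AT3G49340 were lost without dcl1-7 replicate 2 (0.099, 0.0861 and 0.0534) or dcl1-7 replicate 3 (0.105, 0.0839 and 0.0687). The first 2 calls were also lost without Col-0 replicate 1 (0.106 and 0.0753), those of AT2G20690 and AT3G49340 without Col-0 replicate 2 (0.0741 and 0.0533), and that of AT3G49340 without Col-0 replicate 3 (0.0564).

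Probe sets without a gene name held changes as large. The probe set 252269_at was at 8.65, 8.50 and 8.87 in dcl1-7 against 6.12, 4.99 and 4.98 in Col-0 (3.31, SE 0.31, adjusted p = 0.000208). The probe set 252368_at differed by 3.19 (SE 0.45, adjusted p = 0.00163), 266142_at by 2.89 (SE 0.28, adjusted p = 0.000221), 258434_at by 2.86 (SE 0.17, adjusted p = 1.13e-05) and 264960_at by 2.83 (SE 0.32, adjusted p = 0.0005). The tightest was 256503_at, at 8.41, 8.65 and 8.52 in dcl1-7 against 5.77, 5.86 and 6.11 in Col-0 (2.61, SE 0.12, adjusted p = 2.19e-06). In the other direction 264146_at stood out, at 6.24, 7.45 and 6.53 in dcl1-7 against 10.25, 9.88 and 9.87 in Col-0 (−3.26, SE 0.25, adjusted p = 0.000102). The next 5 falls, 250533_at, 244979_at, 249895_at, 260531_at and 264319_at, ran from −1.65 to −1.51. None of these 12 probe sets had overlapping groups, and all kept their calls when any 1 array was left out.

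Other lists gave 1 to 3 calls each, where 4.18% of all probe sets were called higher and 5.24% lower. CCL, a clock-controlled gene, was at 11.48, 12.07 and 12.32 in dcl1-7 against 10.45, 10.51 and 10.62 in Col-0 (1.43, SE 0.26, adjusted p = 0.00586), while GI, of the clock itself, was not called. QQS, which affects leaf starch, was at 6.51, 6.96 and 6.54 in dcl1-7 against 7.77, 8.09 and 8.24 in Col-0 (−1.36, SE 0.18, adjusted p = 0.00113). The sugar transporters SWEET1 and SWEET16 were higher by 0.56 (SE 0.14, adjusted p = 0.0284) and 0.44 (SE 0.11, adjusted p = 0.0313), the others of the 13 starch and sugar genes being uncalled. CRT1b, a calreticulin of the endoplasmic reticulum, was lower by −0.78 (SE 0.17, adjusted p = 0.0132). Of 11 tau glutathione transferases GSTU18 (0.54, SE 0.11) and GSTU27 (0.57, SE 0.16) were higher and GSTU20 (−0.86, SE 0.19) was lower. Of 47 UDP-glycosyltransferases UGT72E1 (0.86, SE 0.19) and UGT76C2 (0.84, SE 0.20), which conjugates cytokinin, were higher, a share of 4.26% against 4.18% of all probe sets and so no result about the family. FDH, here the mitochondrial formate dehydrogenase, was higher by 0.42 (SE 0.12, adjusted p = 0.0497). The calls of SWEET1, SWEET16, CRT1b, GSTU20, GSTU27, UGT72E1, UGT76C2 and FDH were each lost in some fit that left out 1 array (adjusted p of 0.0503 to 0.17), those of CCL, QQS and GSTU18 in none.

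Several groups had 0 called members by limma in dcl1-7 leaves, where 9.42% of all probe sets were called. They were the 23 measured cytochrome P450 genes, 13 auxin genes, 7 cell cycle genes, 6 flavonoid genes, 6 WRKY factors, 5 glucosinolate genes, 5 ethylene and gibberellin genes and 3 defence genes of the salicylic acid route. A missed threshold with 3 arrays a group does not show that these genes were unchanged.

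The leaf arrays of dcl4-2 and rdr6-15 allow a difference to which no Col-0 level contributes, although the Col-0 arrays still enter the fit's shared estimate of spread. Set against the mean of these other mutants, dcl1-7 leaves gave 2908 calls (12.8% of probe sets), with 1173 (5.16%) higher and 1735 (7.63%) lower. Of the 2142 probe sets that differed from Col-0, 1827 (85.3%) also differed from the other mutants in the same direction. The dcl1-7 arrays are common to both comparisons. Against Col-0, dcl4-2 leaves had 0 calls (0%) and rdr6-15 leaves 4 (0.0176%). Of the 129 ribosomal protein genes 105 were lower in dcl1-7 than in the other mutants. CCS was higher than in the other mutants by 1.55 (adjusted p = 0.00028), PHV by 1.1 (adjusted p = 0.000243) and AGL16 by 1.06 (adjusted p = 0.000478).

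Some genes behaved otherwise. Of the 9 measured microRNA targets 5 were called higher than in the other mutants (5.16% of all probe sets), against 6 than in Col-0. ARPN was not called there, and neither were YAB5, AT4G27130 and AT5G24490. In the plastid ribosomal protein operon 2 genes were called lower than in the other mutants (7.63% of all probe sets), against 4 than in Col-0. AT1G12775, QQS, EXPA8 and FDH are given with their dcl4-2 and rdr6-15 differences from the shared Col-0 arrays. AT1G12775, a pentatricopeptide repeat gene of a clade with many small RNA targets, was at 6.43, 6.73 and 6.11 in dcl1-7 against 5.14, 5.15 and 5.32 in Col-0 (1.22, SE 0.18, adjusted p = 0.00187). It stood at 1.00 in dcl4-2 and 0.95 in rdr6-15, and dcl1-7 exceeded the mean of these mutants by 0.25 (adjusted p = 0.35). The other 10 measured genes of that clade were not called in dcl1-7. QQS stood at −1.36 in dcl1-7, 0.53 in dcl4-2 and 2.16 in rdr6-15, and dcl1-7 differed from the mean of the other mutants by −2.71 (adjusted p = 5.96e-06). EXPA8 stood at 1.32 in dcl1-7, 0.63 in dcl4-2 and 0.76 in rdr6-15, and FDH at 0.42 in dcl1-7, 0.36 in dcl4-2 and 0.61 in rdr6-15. Neither was called between dcl1-7 and the mean of the other mutants (adjusted p = 0.122 for EXPA8 and 0.761 for FDH).

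The same mutation was measured in inflorescences, where dcl1-7 had its own Col-0 controls and 3928 calls (17.3%, with 9.85% higher and 7.42% lower). The effect of dcl1-7 differed between leaf and inflorescence for 5070 probe sets (22.3%) in a test of the interaction. Of the 129 cytosolic ribosomal protein genes 109 had effects that differed, and in all 109 the leaf effect was the lower one. In inflorescences 48 of the 129 were called higher, with a median of 0.27, and 44 genes were called lower in leaves and higher in inflorescences. AT2G20450, for example, stood at −1.30 in leaves and 0.50 in inflorescences (adjusted p of the difference 1.44e-07). All 10 nuclear genes of plastid ribosomal proteins differed as well, with the leaf effect lower in 9.

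Among the microRNA targets PHV stood at 0.99 in leaves and 0.80 in inflorescences, a difference that was not called (adjusted p = 0.576), and APS4 at 1.12 and 0.92 (adjusted p = 0.661). AGL16 was higher in both organs but by less in leaves, at 1.02 in leaves and 2.04 in inflorescences (adjusted p = 0.00156). Over the 33 genes compared in this way, which are the 24 largest named changes and the 9 microRNA targets, the organs differed for 24. The 24 named changes were chosen for their size in leaves, and the leaf difference is part of the tested value, so this choice favours a high count. For 7 genes the effect was called in both organs with opposite signs and for 7 in both with the same sign. EXLA1 was higher in leaves (2.57) and lower in inflorescences (−1.58, adjusted p of the difference 1.59e-07), and LHCB4.3, from the photosynthesis list, was lower in leaves (−1.19) and higher in inflorescences (0.81, adjusted p of the difference 4.64e-09).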

How the data were processed

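The deposited table gives a log2 value for each probe set on each array. Per the submitters' processing notes the authors used RMA, and neither its version nor whether the organs were normalized jointly is stated. Because RMA equalizes arrays, a shift common to all transcripts would be removed. There is no read depth on arrays, and precision is limited by their number. GEO's platform annotation, matched to RefSeq TAIR10.1, gave 13513 probe sets 1 symbol, 503 several and 8730 none, and 13436 matched a locus. Listed genes without a probe set of a single name were left out, although the array may hold them. Kept were 9 of 85 microRNA targets, 4 of 24 small RNA genes, 6 of 41 cold and 12 of 48 jasmonate genes. Of the photosynthesis genes 18 of 116 were kept, and of the cytosolic ribosomal protein genes 129 of 230. Families such as the cytochrome P450 and WRKY genes hold only members found by name. Roles given for genes are background knowledge, not annotation.

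Group means of the 12 leaf arrays were fitted by lmFit and eBayes of limma 3.58.1 (R 4.3.3), and p-values adjusted by Benjamini-Hochberg over 22746 probe sets, with no filter. The interaction with organ used all 27 arrays. The fit was tested on simulated data. Replicates were numbered in accession order.

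The rule named the 12 largest rises and 12 largest falls with 1 gene name and separated groups, 6 and 6 without a name, up to 6 called members of each list, and every measured microRNA target and small RNA gene. AT5G24490, LHCB4.2, rpl14 and rpl16 were named after their values were seen. Members and lists were chosen with earlier results of these data known, and the lists of ribosomal proteins, translation factors and plastid complexes after values were seen, so their counts are descriptions. Alternatives were other sets of arrays, scalings, array weights, a filter on low signal, trended and robust variances, a 3′ minus 5′ covariate and leaving out each array.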

Additional observations from a re-analysis of the deposited data

Results flagged for a closer look

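For 24 named genes the effect of dcl1-7 differed between leaf and inflorescence in a limma test of the interaction. Most of these genes were chosen for a large leaf difference, which is part of the tested value. Each value below is the leaf effect minus the inflorescence effect on the log2 scale, so a positive value means a higher effect in leaves. The widest positive difference was 4.16 for EXLA1. Among stress and jasmonate response genes the difference was 3.2 for LTI30, 2.6 for COR47, 2.6 for AT5G05600, 1.48 for AT1G52000, 2.57 for AT4G12490, 2.31 for AT3G10020 and 2.11 for AT3G62550. It was 2.35 for the protease gene AT1G02300, 2.21 for AT5G62360 and 2.38 for the transcription factor gene AT4G28140. AT1G52000 was called higher in both organs, at 2.96 in leaves and 1.48 in inflorescences.

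The widest negative differences were −4.56 for AT2G33850 and −4.48 for AT5G62210, genes called lower in leaves and higher in inflorescences. The difference was −3.25 for AT5G07030, −2.86 for AT5G45670, −2.81 for atpB, −2.31 for AT2G36885, −2.11 for AT3G44400, −1.83 for the ribosomal protein gene AT3G28900, −1.71 for AT2G20690, −1.52 for AT1G04800 and −1.4 for AT3G49340. Of the microRNA targets, AGL16 gave −1.02 and CCS 0.7. The organs' arrays also differ in tissue and in the Col-0 set used, and the part of these in the differences was not tested.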

How the results depend on the processing

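Against 2142 calls (951 higher, 1191 lower), the 6 arrays alone gave 970 (480 higher, 490 lower), all 27 arrays 4055 (1835 and 2220), array weights 3547 (1486 and 2061) and the 3′ minus 5′ covariate 1322 (610 and 712). Leaving out 1 array gave 1043 to 3842 calls (503 to 1663 higher, 540 to 2179 lower), the lowest without Col-0 replicate 1 and the highest without dcl1-7 replicate 1. The comparison with the other mutants, 2908 calls, ran from 1585 to 4588 when 1 dcl1-7 array was left out. Centring, quantile normalization, leaving out the lowest 25% of probe sets and trended, robust variances moved no count of all calls by over 1.5 times. The 5070 organ differences stayed within that factor in every alternative run. Of 103 named calls 66 held in all 14 settings applied to them and 37 were lost in at least 1, with 0 changes of direction among named genes. The 3′ minus 5′ covariate alone ended 28 named calls. Among these were atpB (limma adjusted p = 0.117), atpE (0.165), APS3 (0.157), ARPN (0.06), PDF1.2 (0.0531) and AT5G05600 (0.0695). The causes were not tested. No paired analysis was possible because the labels number the arrays in one run and share no replicate numbers between dcl1-7 and Col-0. Accession order was not fitted in place of labelled pairs. The Col-0 arrays resembled arrays at the same place in that order in other genotypes, as given above. Whether fitting that order would change the calls was not tested. Signal near background limits weak genes, since RMA compresses their differences.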
